A study of Mus musculus with 4 samples.

Results

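The genes described here are 10 of the 33456 genes listed in the deposited matrices, namely *Them5*, *Otop1*, *Plk5*, *Ddn*, *Serpind1*, *Sept3*, *Spint1*, *Rimklb*, *Bfsp2* and *Fxyd3*. They were chosen by their high UMI counts in myelinating Schwann cells, and none of them encodes a classical myelin protein. That choice used these libraries, so the levels in Schwann cells and their difference from other cell types are given as a description, without a test. The change after nerve injury played no part in the choice and was tested. Single cell RNA-seq had been performed on dissociated dorsal root ganglia (DRG) of female C57BL/6 mice aged 8 to 12 weeks. The 2 control libraries came from uninjured ganglia and the 2 injury libraries from ganglia taken 3 days after sciatic nerve crush, and no genetic change is stated for either group. The labels name the L4 ganglion and the methods L4 and L5. Whole ganglia were digested with papain and collagenase and sorted for live cells, and the study describes the libraries of a condition as independent experiments, each made from the pooled cells of several mice. The spread between libraries is therefore one between pools, and mice within a pool cannot be told apart.

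Myelinating Schwann cells wrap a single axon in a lipid-rich sheath. Building and keeping this membrane takes a large output of lipids and proteins, a controlled supply of ions, a cytoskeleton that shapes the cell, and proteases and inhibitors at the cell surface. In ganglia these cells lie along the axons, whereas satellite glial cells (SGC) surround the cell bodies of the neurons. After nerve crush, Schwann cells distal to the lesion shed their myelin and turn into repair cells, and the ganglion itself lies proximal to the lesion.

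The members cover several kinds of protein. *Them5* encodes a mitochondrial acyl-CoA thioesterase that takes part in cardiolipin remodelling, and *Rimklb* a ligase that joins glutamate to N-acetylaspartate or citrate. *Otop1* is a proton channel best known from sour taste cells and the inner ear, and *Fxyd3* belongs to the FXYD family of small regulators of the sodium pump. *Serpind1* (heparin cofactor II, a thrombin inhibitor made by the liver) and *Spint1* (a Kunitz-type inhibitor of matriptase and related surface proteases) restrain proteases. *Sept3* is a septin, a GTP-binding cytoskeletal protein known from neurons. *Bfsp2* encodes phakinin, a beaded filament protein of the eye lens, and *Ddn* encodes dendrin, found in kidney podocytes and at synapses. *Plk5* belongs to the polo-like kinases, whose better known members act in cell division.

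Cells were assigned to a type by marker genes that are no members. A cell entered the myelinating Schwann gate with at least 3 UMIs (unique molecular identifiers, each standing for 1 captured RNA molecule) from at least 2 of *Prx*, *Ncmap*, *Mag*, *Cldn19*, *Drp2* and *Mal*, and cells that passed the gates of several types were kept apart. This gave 118 and 33 cells in control 1 and 2 and 115 and 19 cells in injury 1 and 2, or 285 of 6095 filtered cells. *Mbp* (myelin basic protein), which the gate did not use, fitted the name, at 22860 ± 3902 UMIs per 1000000 UMIs of the summed cells (CPM; SD, n = 4 libraries), against 996 CPM in SGC-gated cells. The libraries differed in depth. The median Schwann-gated cell had 1745.5 and 1905 UMIs in the libraries numbered 1 and 4200 and 5012 in those numbered 2, and the summed UMIs per library lay between 108638 and 255635. Pairs of libraries shared between 1 and 6 cell barcodes.

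All genes lie on autosomes of the mouse build GRCm38 (mm10), at chr3:94342099-94347352 (*Them5*), chr5:38275972-38304217 (*Otop1*), chr10:80356459-80365489 (*Plk5*), chr15:98803777-98809490 (*Ddn*), chr16:17331371-17343575 (*Serpind1*), chr15:82274893-82294574 (*Sept3*), chr2:119237362-119249527 (*Spint1*), chr6:122447296-122498761 (*Rimklb*), chr9:103424924-103480420 (*Bfsp2*) and chr7:31068172-31076704 (*Fxyd3*). *Fxyd3* overlaps *Lgi4* on the opposite strand, which had 1733 UMIs in the deposited matrices, and *Serpind1* overlaps *Pi4ka*, with 557 UMIs. *Ddn* and *Bfsp2* overlap antisense transcripts with no more than 4 UMIs. The strand setting of the counting is not given in the sources used here, so that UMIs from such partners could not be told apart.

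The 250 bases before the start site were searched in the 8 members that the RefSeq promoter table (GRCm38.p6) holds. For *Otop1*, *Rimklb* and *Bfsp2* the start site of that table lies inside the gene span given above. Their windows are therefore not upstream of those spans. The letters ACAAAG, the core bound by SOX factors, and GTGGGCG, a core of EGR sites, were looked for on both strands, since SOX10 and EGR2 are the best known regulators of myelin genes. The sequences below belong to the gene most restricted to Schwann cells (*Them5*), the gene with most UMIs (*Fxyd3*), and the other genes with a match, with matches in capitals and each strand read 5′ to 3′ towards the start site.
Them5, chr3:94341849-94342098, plus strand: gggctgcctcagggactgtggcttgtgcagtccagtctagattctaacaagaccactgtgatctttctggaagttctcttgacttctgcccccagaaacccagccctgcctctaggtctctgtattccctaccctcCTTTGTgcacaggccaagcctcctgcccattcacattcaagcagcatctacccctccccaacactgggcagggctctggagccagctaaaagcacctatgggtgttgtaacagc
Serpind1, chr16:17331121-17331370, plus strand: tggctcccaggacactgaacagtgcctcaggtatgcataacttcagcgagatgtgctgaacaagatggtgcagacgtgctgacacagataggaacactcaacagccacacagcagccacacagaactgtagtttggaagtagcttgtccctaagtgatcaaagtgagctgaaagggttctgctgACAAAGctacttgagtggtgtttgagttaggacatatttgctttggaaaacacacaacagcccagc
Spint1, chr2:119237110-119237359, plus strand: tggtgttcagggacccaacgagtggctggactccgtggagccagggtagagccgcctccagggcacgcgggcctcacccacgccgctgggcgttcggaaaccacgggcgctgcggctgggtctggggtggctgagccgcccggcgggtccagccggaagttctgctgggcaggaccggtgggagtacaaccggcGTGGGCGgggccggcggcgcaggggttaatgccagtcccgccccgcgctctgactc
Fxyd3, chr7:31076698-31076947, minus strand: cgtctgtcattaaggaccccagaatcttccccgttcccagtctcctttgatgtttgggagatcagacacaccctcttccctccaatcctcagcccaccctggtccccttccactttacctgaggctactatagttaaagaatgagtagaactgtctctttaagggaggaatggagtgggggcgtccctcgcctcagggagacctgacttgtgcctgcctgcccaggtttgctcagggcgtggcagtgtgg
The SOX letters begin at position -114 in *Them5*, on the reverse strand, and at -66 in *Serpind1*, counted from the start site. They were found in 2 of the 8 members and in 16.5% of the 32851 upstream windows of the table. The EGR letters begin at -56 in *Spint1* and were found in 1 of 8 members and 7.02% of all windows. A match is a description of letters and not of a bound site.

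Most UMIs of *Them5*, *Otop1*, *Plk5* and *Ddn* were found in Schwann-gated cells. *Them5* had 96 of its 101 UMIs in filtered cells there (95.05%), *Otop1* 46 of 51 (90.2%), *Plk5* 56 of 66 (84.85%) and *Ddn* 53 of 64 (82.8%). Of their remaining UMIs most came from barcodes of several gates. *Otop1* and *Ddn* had no UMI in any of the other 12 gates. For *Ddn*, 0 of 1255 SGC-gated cells had a UMI (exact 95% upper limit 0.2935%, counting error only). This limits cells with a UMI and not cells that express the gene, since a *Ddn* UMI was found in only 16.1% of Schwann-gated cells. The other members were shared with 1 further cell type each or with several. *Bfsp2* had 65.8% of its UMIs in Schwann-gated cells, *Serpind1* 54.6%, *Fxyd3* 52.7%, *Sept3* 47.5%, *Rimklb* 36.4% and *Spint1* 33.6%. These are shares of the UMIs in filtered cells. The filter removed barcodes with 579 of all 817 *Sept3* UMIs and 216 of all 367 *Rimklb* UMIs. The neuron-gated barcodes described below, most of them outside the filter, held 565 *Sept3* and 179 *Rimklb* UMIs, more than the 113 and 55 in Schwann-gated cells. The median share over the 10 genes was 81.6% in control 1, 79.3% in control 2, 61.5% in injury 1 and 47.6% in injury 2. A share also depends on how many cells of each type a library holds. Schwann-gated cells made up 9.07% and 2.46% of filtered cells in control 1 and 2 and 4.84% and 1.77% in injury 1 and 2. With barcodes of several gates placed by most marker UMIs, injury 2 rose close to injury 1, and both stayed below both controls. Whether injury changed the share was not tested.

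**Figure D1:**
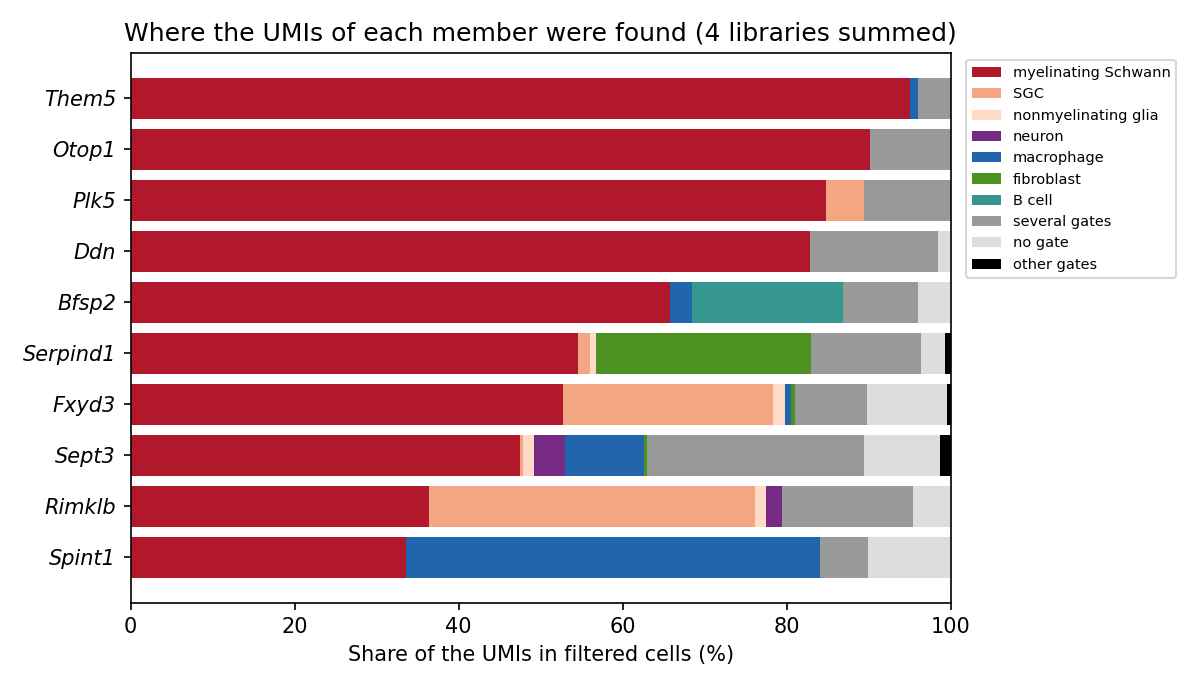
Share of each gene's UMIs in filtered cells (x axis, percent, 4 libraries summed) by gate, one bar per gene. Barcodes removed by the filter, among them most neuron-gated barcodes, are left out. *Them5*, *Otop1*, *Plk5* and *Ddn* lie mostly in the myelinating Schwann gate, from 82.8% to 95.05%, whereas *Spint1* extends into macrophage-gated, *Rimklb* and *Fxyd3* into SGC-gated, *Serpind1* into fibroblast-gated and *Bfsp2* into B cell-gated cells.

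Among the enzymes, *Them5* varied most between libraries. In Schwann-gated cells it had 8 and 49 UMIs in control 1 and 2 and 11 and 28 in injury 1 and 2, equal to 33.7 and 341 CPM in control and 43.0 and 258 CPM after injury. Both libraries numbered 2 were thus far above both libraries numbered 1, in either condition. These are also the libraries with the deeper Schwann-gated cells, and the part of depth in the levels was not tested. Outside the Schwann gate a single *Them5* UMI was found in a macrophage-gated cell and 4 in 1 barcode of several gates. Its relatives *Them4* and *Them6* were at 65.5 ± 24.0 and 8.53 ± 6.12 CPM (SD, n = 4 libraries) in the same cells, and *Them4* was also present in SGC-gated cells at 34.0 CPM.

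*Rimklb* was at 80.1 and 76.6 CPM in control and 50.9 and 110.5 CPM after injury in Schwann-gated cells, from 19, 11, 13 and 12 UMIs. The libraries of the conditions overlapped. In SGC-gated cells it gave 60 UMIs, 1 and 19 in control and 21 and 19 after injury, at 5.10, 10.7, 9.87 and 14.95 CPM. A *Rimklb* UMI was found in 15.4% of Schwann-gated cells (exact 95% binomial interval 11.45 to 20.2%, counting error only) and 4.70% of SGC-gated cells (3.60 to 6.02%), or 6.37% and 1.05% after thinning each cell to 1000 UMIs, at median depths of 2010 and 3958 UMIs. None of the 1066 macrophage-gated or 1011 fibroblast-gated cells had one. The 70 nonmyelinating glia-gated cells held 2 *Rimklb* UMIs, 1 in control 1 (25.4 CPM) and 1 in injury 1 (11.0 CPM). Of the enzymes that make or use N-acetylaspartate, *Aspa* (aspartoacylase, which splits it) was at 245 ± 59.7 CPM in Schwann-gated and 719 CPM in SGC-gated cells. *Folh1*, which splits N-acetylaspartylglutamate, was at 6.49 ± 5.90 CPM, and the paralog *Rimkla* had no UMI in Schwann-gated cells.

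*Otop1* was counted 10 and 18 times in control and 15 and 3 times after injury, at 42.2, 125, 58.7 and 27.6 CPM. Injury 2 was the lowest library and control 2 the highest. The other otopetrins, *Otop2* and *Otop3*, had no UMI in any gated cell.

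*Fxyd3* had 1590 UMIs in Schwann-gated cells, more than the other members together. It was at 2235 and 1212 CPM in control and 2703 and 1795 CPM after injury, and here control 2 was the lowest library. A UMI was found in 83.5% of Schwann-gated cells and 71.0% after thinning to 1000 UMIs. In endothelial cells, taken as a type without the gene, these shares were 1.22% and 0.185%, at a median depth of 4230 UMIs. SGC-gated cells held a further 774 *Fxyd3* UMIs, at 280.3 and 105 CPM in control and 191 and 99.2 CPM after injury, found in 35.6% of cells and in 12.8% after thinning. The SGC level was higher in both libraries numbered 1 than in both numbered 2. The 70 nonmyelinating glia-gated cells had 44 UMIs, found in 27.1% of cells and in 16.95% after thinning. Only control 1 and injury 1 held at least 10 of these cells. Their levels were 152 and 385.5 CPM, below the SGC-gated cells in control 1 and above them in injury 1. Of its family, *Fxyd6* was at 1377 ± 444 CPM in Schwann-gated and 3.87 CPM in SGC-gated cells, whereas *Fxyd1* was at 838 ± 292 CPM and 1772 CPM.

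Of the protease inhibitors, *Serpind1* was at 54.8 and 223 CPM in control and 50.9 and 175 CPM after injury in Schwann-gated cells, from 13, 32, 13 and 19 UMIs. As for *Them5*, both libraries numbered 2 were above both numbered 1. A second source were the fibroblast-gated cells, with 37 UMIs in 30 of 1011 cells, at 6.16 and 5.04 CPM in control and 14.2 and 7.98 CPM after injury. The injury effect in fibroblast-gated cells was not tested. *Serpine2* (protease nexin 1), the relative with most UMIs, was at 774 ± 174 CPM in Schwann-gated and 1425 CPM in SGC-gated cells, whereas *Serpinc1* (antithrombin) had no UMI in gated cells.

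*Spint1* was at 50.6 and 76.6 CPM in control and 43.0 and 55.2 CPM after injury in Schwann-gated cells, from 12, 11, 11 and 6 UMIs. Macrophage-gated cells held more of its UMIs, 60 in 48 of 1066 cells, with 19 and 0 in control and 37 and 4 after injury. At 17.6, 0, 13.9 and 3.90 CPM, the libraries numbered 1 were the higher ones in both conditions. None of the 1255 SGC-gated cells had a *Spint1* UMI. Its paralog *Spint2* was at 5.10 ± 3.96 CPM in Schwann-gated cells, and its protease targets *St14* (matriptase) and *Hpn* (hepsin) had no UMI there.

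Among the cytoskeletal and scaffold genes, *Sept3* varied least. It was at 189.8 and 125 CPM in control and 137 and 138 CPM after injury, from 45, 18, 35 and 15 UMIs, and was found in 77 of the 285 cells. The septins with most UMIs, *Sept7* and *Sept2*, were at 316 ± 73.9 and 102 ± 37.1 CPM in Schwann-gated cells and at 389 and 101.5 CPM in SGC-gated cells, in which a single *Sept3* UMI was found. *Bfsp2* was at 71.7 and 90.55 CPM in control and 27.4 and 119.7 CPM after injury, from 17, 13, 7 and 13 UMIs. Its lens partner *Bfsp1* was at 3.355 ± 4.38 CPM in the same cells, whereas *Vim*, an intermediate filament gene of many cell types, was at 2445 ± 679 CPM. The 43 B cell-gated cells held 14 *Bfsp2* UMIs, 4 and 3 in control and 3 and 4 after injury. Only control 1 and injury 1 had at least 10 of these cells, at 99.3 and 69.1 CPM, both above the Schwann-gated cells of the same library. A *Bfsp2* UMI was found in 20.9% of B cell-gated and 9.83% of Schwann-gated cells, or 7.78% and 3.53% after thinning to 1000 UMIs. The larger share of UMIs in Schwann-gated cells thus goes with their larger number.

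*Ddn* was counted 22 and 16 times in control and 9 and 6 times after injury in Schwann-gated cells, at 92.8, 111, 35.2 and 55.2 CPM, so that both injury libraries lay below both control libraries, as they did for 13.2% of the genes tested. No cell had more than 3 *Ddn* UMIs. *Plk5* was at 21.1 and 167 CPM in control and 46.9 and 138 CPM after injury, from 5, 24, 12 and 15 UMIs, with the libraries numbered 2 again above those numbered 1. The relatives of *Plk5* with most UMIs, *Plk2* and *Plk3*, were at 42.5 ± 45.5 and 6.28 ± 9.95 CPM. *Plk1*, the mitotic kinase, had no UMI in Schwann-gated cells.

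**Figure D2:**
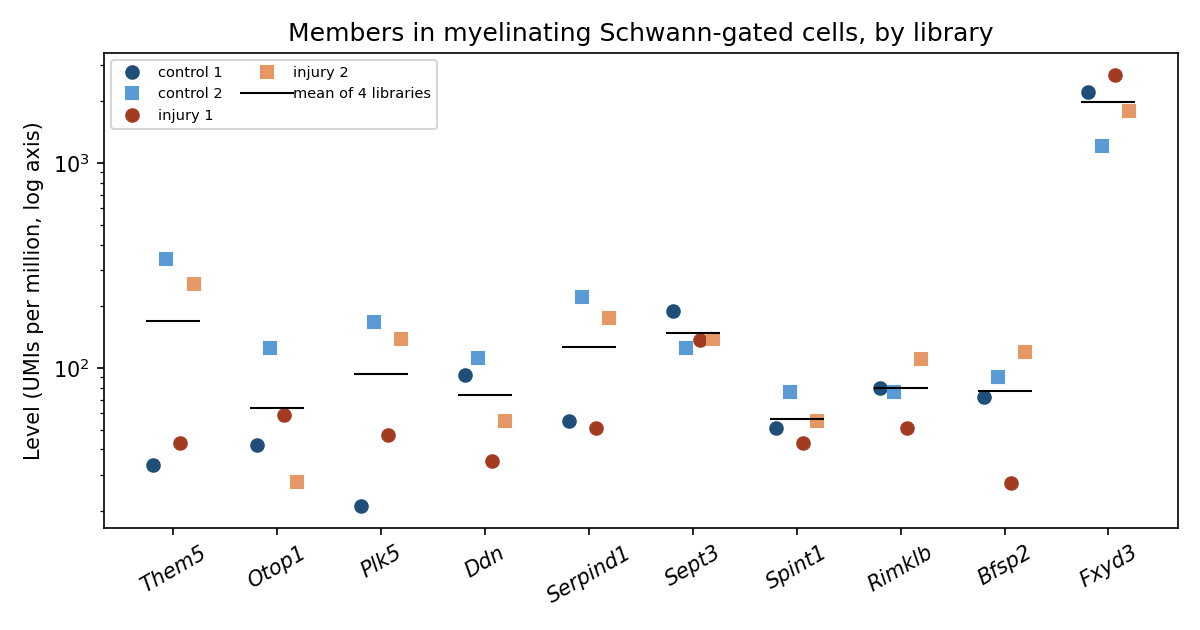
Level of each gene in myelinating Schwann-gated cells (y axis, CPM on a log scale), with 1 point per library and the mean of the 4 libraries as a bar. For *Them5*, *Plk5* and *Serpind1* the libraries numbered 2 (squares) lie above those numbered 1 (circles) in both conditions, while for *Ddn* the injury libraries at 35.2 and 55.2 lie below the controls at 92.8 and 111.

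The genes were unevenly spread over the Schwann-gated cells. Leaving *Fxyd3* aside, at least 1 of the other 9 genes was found in 58 of 118 and 29 of 33 control cells and in 49 of 115 and 17 of 19 injury cells, and 53 of the 285 cells held 3 or more of them. The deeper libraries numbered 2 had the higher shares. To ask which other genes shared the pattern, each gene was compared with 12033 others over 37 sums, each of 1 gate in 1 library with at least 10 cells. These sums come from only 4 libraries and share their depth, so that the correlations of log2(CPM + 1) are descriptions. The sums also span all gates, and the members were chosen for high counts in Schwann cells. A likeness to other genes high in these cells was thus largely set by that choice. *Them5* was closest to *Pmp2* (Pearson's r = 0.97), a fatty acid binding protein of peripheral myelin. *Pmp2* together with *Gjb1* (connexin 32) and the uncharacterized *2610034M16Rik* made up the nearest genes of *Otop1*, *Plk5*, *Ddn*, *Spint1* and *Bfsp2*. The highest r was 0.95 for *Otop1*, 0.96 for *Plk5* and 0.95 for *Ddn*, but 0.84 for *Spint1* and 0.72 for *Bfsp2*. *Sept3* was closest to *Gldn* (r = 0.92), *Gjb1* and *Mlip*, *Serpind1* to *Vat1l* (r = 0.93), *Mme* and *Nfasc*, *Rimklb* to *Ccdc37* (r = 0.98), *Ttc9* and *Ccdc13*, and *Fxyd3* to *Ccdc37* (r = 0.90), *Gal3st1* and *Arpc1a*.

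*Pmp2* itself was at 50.6 and 717.5 CPM in control and 199.5 and 985 CPM after injury. The Schwann-gated cells were therefore divided by a *Pmp2* UMI, a division made after the values were seen and given without a test. Cells with *Pmp2* numbered 8 and 20 in control and 15 and 9 after injury, which is 6.78%, 60.6%, 13.0% and 47.4% of the Schwann-gated cells. These 52 of 285 cells (18.25%) held 88.5% of the *Them5* UMIs, 69.6% of the *Plk5*, 60.0% of the *Bfsp2* and 58.7% of the *Otop1* UMIs. *Them5* was at 9.35 and 40.6 CPM without and 257.5 and 498.5 CPM with *Pmp2* in the control libraries, and at 14.9 and 82.5 CPM without and 146 and 399 CPM with it in the injury libraries. Every library was higher with *Pmp2*. The same held in all 4 libraries for *Otop1*, *Plk5*, *Spint1*, *Bfsp2* and *Fxyd3*, and in 3 of 4 for the remaining genes. Cells with *Pmp2* were deeper in each library, with median UMIs of 1951 against 1737.5 in control 1 and 5442 against 4083 in injury 2. Among cells above 2500 UMIs, summed over the 4 libraries, *Them5* was at 42.8 CPM in the 57 cells without and 394 CPM in the 42 cells with *Pmp2*. Control 2 and injury 2 gave 20 and 9 of the cells with and 13 and 10 of those without, so that the difference between libraries enters this contrast. All Schwann-gated cells of these 2 libraries were above 2500 UMIs, so that their values above already hold for such cells. The gate markers *Mag* and *Mal* were each higher with *Pmp2* in 2 of 4 libraries, with means of 385 and 1671 CPM without and 349 and 1768 CPM with it.

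**Figure D3:**
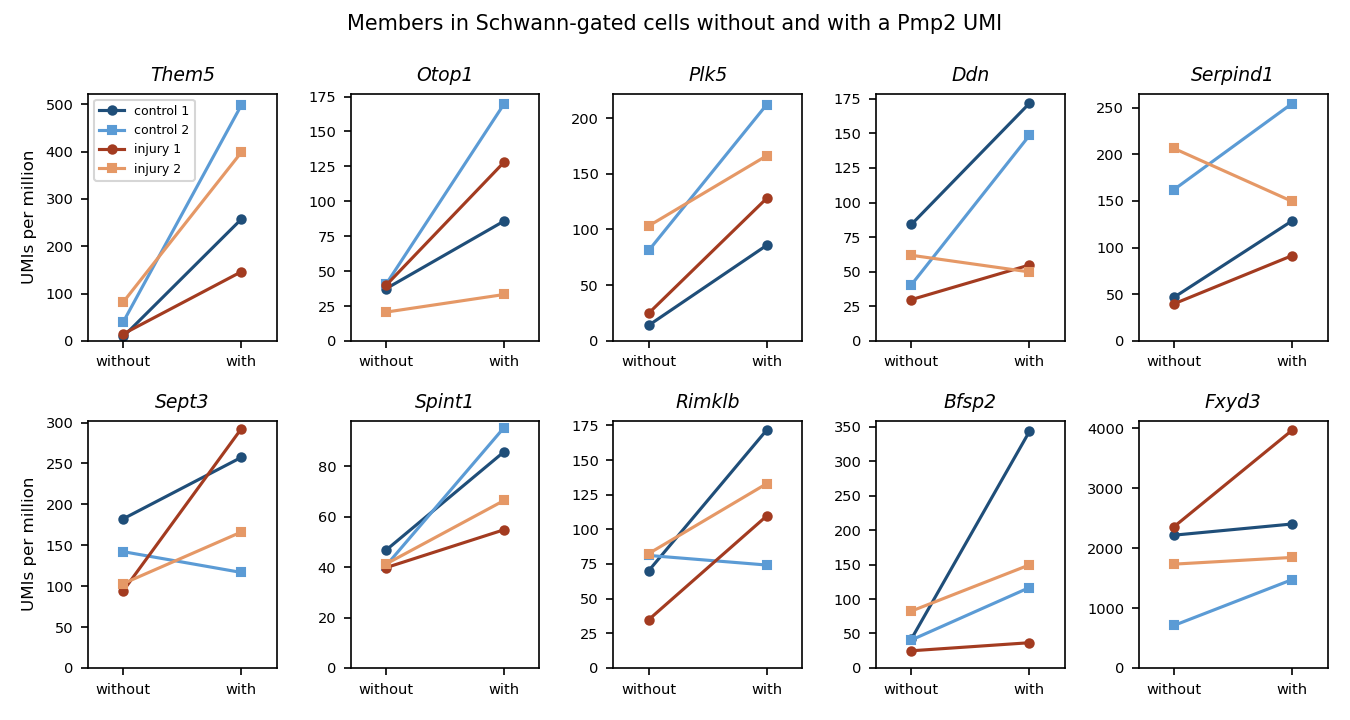
Level of each gene (y axes, CPM, from 0) in Schwann-gated cells without and with a *Pmp2* UMI, with a line per library. All 4 lines rise for *Them5*, *Otop1*, *Plk5*, *Spint1*, *Bfsp2* and *Fxyd3*, and for *Them5* the mean goes from 36.9 to 325 CPM.

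To ask whether nerve crush changed these genes, the UMIs of Schwann-gated cells were summed per library and compared with edgeR's quasi-likelihood test, with n = 2 libraries per condition. A gene was called at an adjusted p of at most 0.05 and a log2 fold change of at least 2 in size, the thresholds of the study. All 10 genes passed the filter on low counts, and 0 were called. Of all 2839 genes tested, 0% were called higher and 0% lower, with 50 genes at an unadjusted p under 0.05, while DESeq2 called 2 genes, both lower and neither a member. *Ddn* had a log2 fold change of -1.28 (SE 0.46, 95% interval -2.39 to -0.18, unadjusted p = 0.0293, edgeR's adjusted p = 0.999). Such a pattern, with both injury libraries below both controls, was shown by 13.2% of the genes tested. The log2 fold changes of the other genes lay between -0.78 for *Otop1* and 0.35 for *Fxyd3*, with intervals that hold 0. They were wide for *Them5* (-0.45, interval -3.26 to 2.36) and *Plk5* (-0.10, interval -2.46 to 2.26), so that both intervals hold a log2 fold change of 2 in either direction. The interval was narrowest for *Sept3* (-0.25, interval -1.08 to 0.57) and *Fxyd3* (-0.53 to 1.22). The median over the 10 genes was -0.40, beside -0.02 over all genes tested. For 7 genes, *Them5*, *Otop1*, *Plk5*, *Serpind1*, *Sept3*, *Rimklb* and *Bfsp2*, the sign turned when 1 library was left out, and for *Ddn* the values then lay between -0.86 and -1.54. With barcodes of several gates placed by most marker UMIs, *Ddn* was at -0.97 and its interval (-2.08 to 0.14) held 0.

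**Figure D4:**
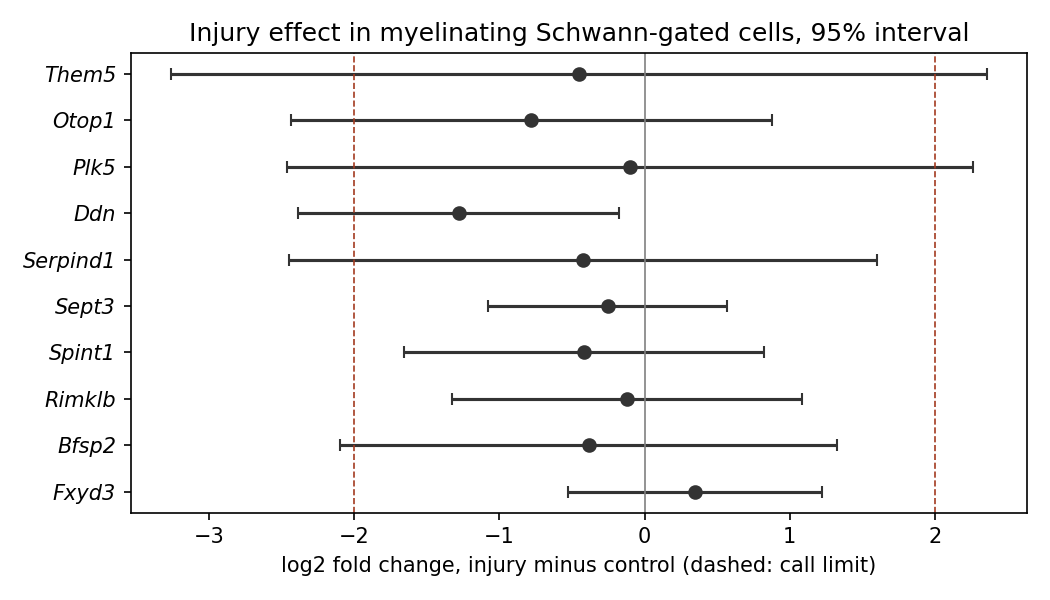
Log2 fold change after injury (x axis, injury minus control) of each gene in myelinating Schwann-gated cells, with its 95% interval from edgeR and dashed lines at the limit of a call. The interval of *Ddn* (-2.39 to -0.18) lies below 0, and those of the other 9 genes hold 0.

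Genes of related function were likewise not called in these cells. The 16 myelin genes outside the gate showed log2 fold changes with a median of -0.16, and 3 of them were above 0. Of 14 genes of repair Schwann cells only *Jun*, *Sox2* and *Atf3* passed the filter on low counts. *Jun* was at 3508.5 and 1052 CPM in control and 2194.5 and 1095 CPM after injury, and *Atf3* at 350.0, 90.55, 336 and 46.0 CPM, with the libraries numbered 1 above those numbered 2 for both genes. Of 52 relatives of the members 14 were tested and 0 were called, with 7 above 0.

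In SGC-gated cells 2 members could be tested. *Rimklb* was at a log2 fold change of 0.34 (interval -0.82 to 1.495) and *Fxyd3* at -0.17 (interval -1.17 to 0.82), and neither was called. Of the 8708 genes tested 0% were called higher and 0% lower by edgeR (101 genes at an unadjusted p under 0.05), and DESeq2 called 3. In macrophage-gated cells *Spint1* had a log2 fold change of -0.47 (interval -2.30 to 1.37) and was not called, where 0.0141% of 7105 genes were called higher and 0.0281% lower. Without control 1 no *Spint1* UMI was left in the control libraries, so that its fold change there has no meaning.

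Sensory neurons are large cells, and 230 of the 297 barcodes used here lay above an upper limit set on the other cells, 15000 UMIs or 4000 genes. They were examined without these upper limits. The neuron gate alone left between 2 and 15 barcodes per library, too few for the test as planned. Barcodes of several gates were therefore placed by the gate with most marker UMIs, which gave 24 and 161 barcodes in control and 34 and 78 after injury, with median UMIs between 18575 and 33278.5. *Sept3* was at 88.35 and 62.7 CPM in control and 73.9 and 49.4 CPM after injury and was found in 215 of the 297 barcodes (72.4%). The log2 fold change was -0.14 (interval -0.94 to 0.66). *Fxyd3* was at 5.38 ± 1.81 CPM (SD, n = 4 libraries) in these barcodes. In fibroblast-gated cells, with barcodes of several gates placed in the same way but the upper limits kept, it was at 6.32 CPM. *Them5*, *Otop1*, *Plk5*, *Ddn* and *Spint1* had between 1 and 8 UMIs in all 297 barcodes. *Serpind1* and *Bfsp2* had none.

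*Rimklb* was at 6.87 and 8.47 CPM in control neurons and 22.7 and 38.01 CPM after injury, from 7, 30, 35 and 107 UMIs. Both injury libraries lay above both control libraries, as did 21.7% of the 10340 genes tested, while 23.3% showed the opposite order. The log2 fold change was 2.09 (SE 0.36, interval 1.24 to 2.95, unadjusted p = 0.000826), and with an adjusted p of 0.185 in edgeR's test it was not called, nor was any other gene (0% higher and 0% lower, 1024 genes at an unadjusted p under 0.05). DESeq2 called 89 genes and gave *Rimklb* an adjusted p of 0.0506. Most of these UMIs sat in 1 barcode of each injury library. A barcode of injury 1 held 30 of the 35 UMIs and a barcode of injury 2 held 90 of the 107 UMIs, whereas no other neuron-gated barcode of any library had more than 2. When the barcode with most *Rimklb* was left out of each library, a step added after the values were seen, the levels were 5.06 and 7.95 CPM in control and 3.63 and 6.24 CPM after injury, and the log2 fold change was -0.29 (interval -1.47 to 0.90, edgeR's adjusted p = 0.879).

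Both barcodes were rich in RNA and held UMIs of neuronal genes, given here as raw counts, which rise with depth. The one of injury 1 held 164105 UMIs and 8621 genes, with 1680 UMIs of *Tubb3* (a neuronal tubulin), 116 of *Nefh* (a neurofilament of large sensory neurons), 182 of *Pvalb* (parvalbumin, a marker of proprioceptors), 89 of the injury gene *Atf3* and 101 of *Reg3b*. The one of injury 2 held 90983 UMIs and 7907 genes, with 222 UMIs of *Tubb3*, 99 of *Nefh* and 60 of *Ntrk2* (TrkB), 1 of *Pvalb* and no UMI of *Atf3* or *Reg3b*. Of the other neuron gate markers, the injury 1 barcode held 37 UMIs of *Isl1* and 117 of *Snap25*, but none of *Rbfox3*, *Prrxl1* or *Scn10a*. That of injury 2 held 8 of *Isl1*, 116 of *Snap25*, 11 of *Rbfox3*, 12 of *Prrxl1* and none of *Scn10a*. The *Rimklb*-richest barcodes of control 1 and 2 held 31263 and 21091 UMIs, with 13 and 14 of *Isl1*, 60 and 53 of *Tubb3* and 3 each of *Nefh*. Neither injury barcode held a UMI of the myelinating Schwann markers. The SGC markers had no UMI in the injury 1 barcode and 16 in that of injury 2. Within them *Rimklb* was at 183 and 989 CPM, against 64.0 and 94.8 CPM in the barcodes with most *Rimklb* of control 1 and 2, which held 2 UMIs each. In Schwann-gated cells 1 cell held 5 of the 8 *Them5* UMIs of control 1 and 1 cell held 4 of the 7 *Bfsp2* UMIs of injury 1, while in the other combinations of gene and library no cell held more than 33.3% of a gene's UMIs.

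**Figure D5:**
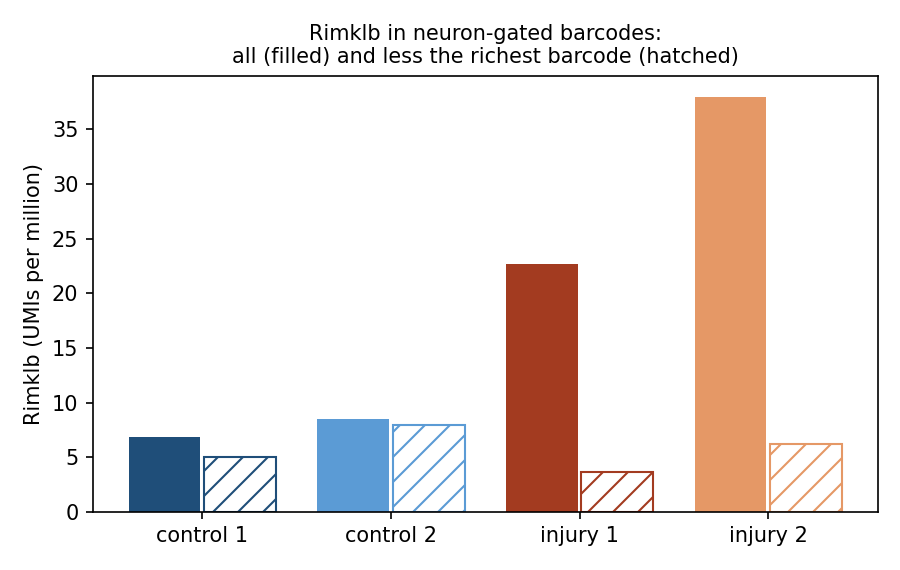
*Rimklb* in neuron-gated barcodes (y axis, CPM) per library, over all barcodes (filled bars) and less the barcode with most *Rimklb* UMIs (hatched bars). The injury libraries go from 22.7 to 3.63 and from 38.01 to 6.24, and the control libraries from 6.87 to 5.06 and from 8.47 to 7.95.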

How the data were processed

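Droplet-based 3′ RNA-seq of DRG cells was deposited by the authors as raw UMI counts per gene and barcode, 1 matrix per library, made with Cell Ranger 2.1.0 on mm10 and analysed by them in Partek Flow 9.0.20.0417, per the study's methods and processing notes. The labels number 1 library of each condition 2, and the other is called 1 here. The members and gene lists were chosen with earlier results of these data known. The filter kept barcodes of 600 to 15000 UMIs and 500 to 4000 genes, with mitochondrial UMIs below 10% (6095 of 6975 barcodes). Of 13 marker gates, cells passing several (526) stood apart, which was the only treatment of doublets, and 714 passed none. UMIs were summed per gate and library and fitted with edgeR 4.0.16 (TMM, quasi-likelihood, filterByExpr, Benjamini-Hochberg over all genes tested) in R 4.3.3, after a test on simulated counts. DESeq2 1.42.0, other filters, gates and left-out libraries were alternatives. The neuron comparison had been planned without barcodes of several gates, with no test where a library held fewer than 10 barcodes. The gate alone gave 4 and 15 barcodes in control and 2 and 4 after injury, 25 of the 297 used. Placement by most marker UMIs, planned as an alternative setting, was tested in its place, which departs from that plan. CPM are UMIs per 1000000 UMIs of the summed cells and are not divided by length, as 3′ ends were counted. Total UMIs per library lay between 5585909 and 11210875. The text names all members, the 2 highest genes per list, and the 3 most alike genes. *Rimkla*, *Otop3*, *Serpinc1*, *Spint2*, *St14*, *Hpn*, *Plk1*, *Sox2*, *Mag*, *Mal* and the genes of the *Rimklb*-rich barcodes were named after their values were seen. Some further genes are not reported here.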

Additional observations from a re-analysis of the deposited data

Results flagged for a closer look

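Outside the gates that the comparisons use, the 714 filtered cells that passed no gate held UMIs of some members above the 3 that a count of 0 allows. *Fxyd3* had 297 UMIs in 157 of these cells, 44 and 19 in control and 222 and 12 after injury, and 110 of the 157 cells also held a marker of the myelinating Schwann gate. *Sept3* had 22 UMIs there, *Spint1* 12, *Rimklb* 7 and *Serpind1* 4.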

How the results depend on the processing

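The number of genes called in each comparison depended on the setting, while no setting but 1 called a member. In Schwann-gated cells 0 genes became 2 with DESeq2, 8 without the filter on low counts and 0 to 6 with 1 library left out (4 without control 1, 6 without control 2). In SGC-gated cells 0 became 3, 8 and 0 to 4 (4 without control 1), and in neuron-gated barcodes 0 became 89, 237 and 17 to 115 (26 without control 1, 17 without control 2, 20 without injury 1, 115 without injury 2), 1 with all deposited barcodes and 4 less the barcodes richest in *Rimklb*. In macrophage-gated cells 3 became 12, 90 and 0 to 51 (51 without control 2, 0 without any other library), and 0 with the stricter gate and with several-gate barcodes placed by most UMIs. Where 1 library was left in a condition, it was assumed to vary like the others. The causes were not tested. The setting that called a member was *Rimklb* in neurons without the filter on low counts (log2 fold change 2.08, edgeR's adjusted p = 2.96e-05), which still held the 2 rich barcodes. Its log2 fold change turned to -0.29 without them.

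The study speaks of batches of pooled cells for its 2 replicates. Its methods name contralateral ganglia as uninjured controls where needed. It is not stated that the replicate number marks a shared batch, or whether control and injury libraries share mice. Deviations from the group mean of libraries with the same number correlated at 0.43 in Schwann-gated, 0.27 in SGC-gated, 0.28 in macrophage-gated cells and 0.15 in neuron-gated barcodes, over 2 pairs only. With the number as a replicate block, 0, 5, 68 and 11 genes were called in these comparisons, no member among them, and *Plk5* in Schwann-gated cells went from -0.10 to 0.14.

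With 1 library left out, log2 fold changes in Schwann-gated cells ranged from -2.11 to 2.02 for *Them5* (0.51 without injury 1), -1.51 to 0.23 for *Otop1*, -1.08 to 2.02 for *Plk5* (0.67 without injury 1), -1.42 to 0.94 for *Serpind1* (0.39 without injury 1), -0.39 to 0.070 for *Sept3*, -0.65 to 0.49 for *Rimklb* and -1.56 to 0.58 for *Bfsp2*. The highest value came without control 2 for *Them5*, *Otop1*, *Plk5* and *Serpind1*, without control 1 for *Sept3*, and without injury 1 for *Rimklb* and *Bfsp2*. In SGC-gated cells *Fxyd3* ranged from -0.76 to 0.48 (0.19 without injury 2), in macrophage-gated cells *Spint1* from -1.89 to 6.71, the last against a control without a UMI (0.07 without injury 2), and in neuron-gated barcodes *Sept3* from -0.51 to 0.19 (0.16 without control 1) and *Fxyd3* from -0.91 to 0.53. The log2 fold change of *Fxyd3* in neurons was 0.043 with all deposited barcodes. The mean over libraries of the median share of UMIs in Schwann-gated cells was 67.5% ± 16.05 (SD, n = 4), and 62.8 to 74.1% with 1 library left out. All 40 levels under other settings stayed within 1 SD of the reported ones. That limit was wide, being the spread between libraries, at 155 CPM beside a level of 169 CPM for *Them5*. The settings also drew on mostly the same cells, so that this is a weak check. Most members had fewer than 50 UMIs in a library, which limits the folds that could be seen, and the Schwann gate holds 19 cells in injury 2.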

Other observations

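Single UMIs of members in immune cells were not spread evenly. Of the macrophage-gated cells, those with at least 2 UMIs of *Xcr1*, a chemokine receptor known from cross-presenting dendritic cells, carried most *Sept3*. Over all gates 34 filtered cells had 2 or more *Xcr1* UMIs, 19 of them in the macrophage gate and 10 in none, and they held 30 *Sept3* UMIs in 18 cells, with 14 and 2 in control and 9 and 5 after injury. The level was 124 CPM in these cells, against 1.23 CPM in the 1047 other macrophage-gated cells. Both the gene and the limit of 2 UMIs were chosen after the values were seen, and the cells were deep, with a median of 6681 UMIs.

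*Bfsp2* in B cell-gated cells went with *Vpreb1* or *Vpreb3*, genes of the surrogate light chain system of B cell precursors. The 29 cells with a UMI of either held 13 of the 14 *Bfsp2* UMIs, in 8 cells, and the 14 cells without held 1. Median depth was 2456 and 1413.5 UMIs, and this division too was made after the values were seen.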
